A study of Mus musculus with 10 samples.

Results

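The genes described here are the 9 that write, copy and remove cytosine methylation in mouse: Dnmt1, Uhrf1, Dnmt3a, Dnmt3b, Dnmt3l, Tet1, Tet2, Tet3 and Tdg. They were chosen by name and not by a rule on their values, although earlier results of these data were known. A feature is an annotated 3′UTR plus 2 kb of downstream sequence, and features with identical coordinates were summed to 1 site. The 9 genes have 43 features at 12 sites, of 43031 features at 28730 sites in all. For each gene the site with the highest mean level is called its main site.

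RNA was measured in C57BL/6 embryonic stem cells (ESC) that differ in Dido1, the gene of the nuclear protein DIDO3. The 3 groups compared were wild type (WT), DIDO3ΔE16, which lacks exon 16 of Dido1, and DIDO3ΔCT+HADIDO3, a line with a C-terminal deletion of DIDO3 that was given back an HA-tagged DIDO3. All were grown in serum with leukemia inhibitory factor, on mouse embryonic fibroblast feeders or on gelatin; which of these surfaces a library came from is not stated. There were 3 libraries of each kind. The labels list 4 WT samples, but WT replicates 2 and 3 hold 1 library, called WT replicate 2-3 here. The endogenous C-terminal deletion remains in the reconstituted line, and it is not stated whether libraries of one kind came from separate cultures or whether each line was 1 clone, so p-values measure only the spread between libraries.

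DNMT1 copies methylation to the new DNA strand after replication, and UHRF1 brings it to hemimethylated CpG sites. DNMT3A and DNMT3B place new methylation, and DNMT3L, which has no catalytic activity of its own, stimulates them; it is known as a gene of germ cells and ESC. TET1, TET2 and TET3 oxidize 5-methylcytosine in steps, using 2-oxoglutarate, and TDG, a DNA glycosylase, cuts out the most oxidized forms so that base excision repair can restore an unmethylated cytosine. ESC in serum are known to express both the writers and the erasers.

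Between 1.46 and 2.61 gigabases of aligned sequence fell in features per library, and 1 TPM (a level per feature length, scaled to the same total in each library) stood for a mean coverage of 0.434 to 0.775. All 8 markers of ESC were at 1 TPM or more in every library, but some were unsteady within WT (Nanog 664, 676 and 3.10 TPM, Esrrb 5.18, 1155 and 8.78 TPM). None passed the test used for the 9 genes in DIDO3ΔE16, with its fold threshold, where 15.1% of all sites passed it. Not passing does not mean unchanged, as Nanog was 3.20 on the log2 scale (standard error 2.33) and Esrrb 4.99 (standard error 2.25). In DIDO3ΔCT+HADIDO3, where 17.3% of all sites passed, Zfp42 was higher (log2 fold change 1.65, limma adjusted p = 9.02e-05) and Klf4 lower (−0.75, limma adjusted p = 0.00054). As a check of the labels, the most downstream site of Dido1 had 17.9, 16.8 and 13.7 TPM in WT, 0.546, 0.511 and 0.307 TPM in DIDO3ΔE16, and 12.1, 11.5 and 10.9 TPM in DIDO3ΔCT+HADIDO3. The labels give each library a code, and codes that begin alike are called a flow-cell family here, a grouping the labels do not name. WT replicate 2-3 was the only WT library that shared a family with the mutant libraries. The other WT libraries shared theirs with no mutant library, so family and genotype are largely confounded. Sites with more features were less steady: among sites that reached 10 TPM, a range of over 3-fold within a group was found at 13.9% of 8438 sites with 1 feature and at 48.7% of 152 sites with 6 or more.

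The measured stretches differ between the genes. The 3′UTR of the main site runs from 273 bases in Dnmt3l to 7962 bases in Tet1, so the added downstream sequence makes up 88.0% of the Dnmt3l site and 20.1% of the Tet1 site. What the long 3′UTRs share is matches to the seed of miR-29, a family of microRNAs known to target Dnmt3a, Dnmt3b and the TET genes. The mature sequence of mmu-miR-29a-3p, from RefSeq (GRCm38.p6), is shown with bases 2 to 8, the seed, in capitals.

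mmu-miR-29a-3p: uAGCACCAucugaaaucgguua

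The letters searched were TGGTGCT, the complement of these bases, on the transcript strand of GENCODE vM21 transcripts. They occur in the 3′UTRs of 6 of the 9 genes, 29 times in all. Tet3 holds 8, Tet1 7, Dnmt3a and Tet2 5 each, Tdg 3 and Dnmt3b 1, and none was found in Dnmt1, Uhrf1 or Dnmt3l. The first match in each of the 6 genes is given below in a window of 30 bases, mm10, with the match in capitals.

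Dnmt3a, chr12:3908560-3908589, plus strand: ccgacttcataaTGGTGCTttcaaaacagc

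Dnmt3b, chr2:153686615-153686644, plus strand: agtagcccggcaTGGTGCTcatgttctctt

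Tet1, chr10:62812199-62812228, minus strand: aaccatagagtcTGGTGCTttcccccgggt

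Tet2, chr3:133466322-133466351, minus strand: tgcaggatcatcTGGTGCTgacgtatgatg

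Tet3, chr6:83367974-83368003, minus strand: cgagctgctctgTGGTGCTtttgccctcat

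Tdg, chr10:82649493-82649522, plus strand: tcctgtttaaacTGGTGCTgtgtacatggg

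Over the longest 3′UTR of 21020 protein-coding genes the same letters occur 0.106 times per kb, and 13.1% of these 3′UTRs hold them, or 47.1% of the 796 that are at least 5 kb long. The 6 genes with a match have 0.747 (Dnmt3a) to 1.69 (Tdg) per kb, which for Dnmt3b rests on 1 match, and Dnmt1, Uhrf1 and Dnmt3l have 0. Matches to the seed of mmu-miR-294-3p, an ESC microRNA (AGCACTT, 0.121 per kb overall), were found in Tet1, Tet2 and Tet3 and in none of the others. Such a match is held by 14.7% of all these 3′UTRs and by 59.2% of those of at least 5 kb, as Tet1 and Tet3 have. The hexamer AATAAA, the common poly(A) signal, lies in the last 30 bases of the annotated 3′UTR of 5 of the 9 main sites (Dnmt1, Dnmt3a, Uhrf1, Tet1 and Tet2), against 53.2% of 20829 ends. Dnmt3b has ATTAAA there, as 13.9% of ends do, and Dnmt3l, Tet3 and Tdg have neither. A match describes the letters and is not a measured site of action.

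Tet2 and Tet3 rose in DIDO3ΔE16, and Dnmt3a fell in DIDO3ΔCT+HADIDO3. Tet1 was lower than WT by about the same factor in both lines, Dnmt3b was lower than WT in DIDO3ΔCT+HADIDO3, as were all libraries of that line at Dnmt3l, where the test was not passed, and Uhrf1 stayed close to WT. Altered means a log2 fold change of 0.7 or more in size (1.62-fold) with an adjusted p under 0.05, from limma on log2(scaled TPM + 0.1) over all sites with Benjamini-Hochberg adjustment. "Rose" and "fell" are used for altered sites. The value of a site joins its 3′UTR and the 2 kb beyond it, and these parts were not measured apart. Whether a change lay in the level of the RNA or in reading past its 3′ end was not tested. In DIDO3ΔE16 relative to WT, 2 of the 9 main sites were altered, both higher, where 15.1% of 21063 sites were altered, 10.2% higher and 4.94% lower. In DIDO3ΔCT+HADIDO3 it was 1 of 9, lower (17.3% of 20879 sites altered, 10.1% higher and 7.24% lower), and in the direct comparison 3 of 9, all higher in DIDO3ΔE16 (27.4% of 21172 sites altered, 13.9% higher and 13.4% lower).

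Without the fold threshold, 6 of the 9 main sites had an adjusted p under 0.05 in DIDO3ΔE16 against WT (33.2% of all sites), 3 higher and 3 lower. Of the lower ones, Uhrf1 was near the threshold and Dnmt3l depended on the model, as given with each gene. In DIDO3ΔCT+HADIDO3 against WT it was 5 of 9 (38.4% of all sites), and all 5 were lower. In the direct comparison it was 4 of 9 (49.2% of all sites), 3 higher and 1 lower in DIDO3ΔE16. The values of the 2 groups did not overlap at 6 of 9 main sites in the first comparison (49.4% of all sites), 7 of 9 in the second (53.5%) and 6 of 9 in the direct one (61.6%). The comparisons with WT use the same WT libraries. Fewer cells of a type and less RNA per cell cannot be told apart in such samples.

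**Figure D1:**
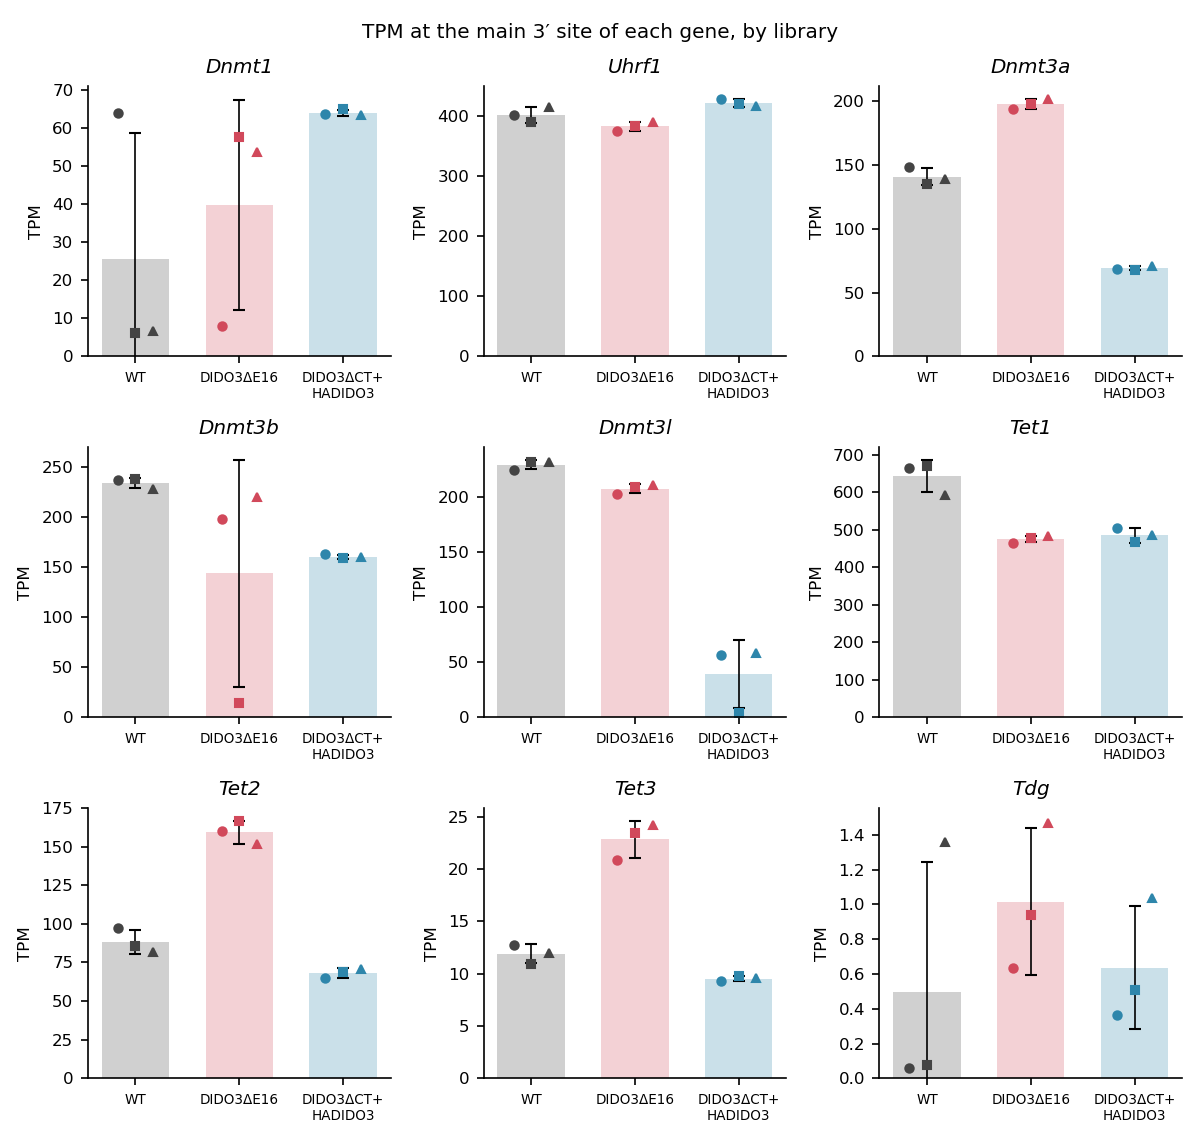
TPM at the main site of each of the 9 genes (vertical axis, linear from 0, a different range per panel) in WT, DIDO3ΔE16 and DIDO3ΔCT+HADIDO3. Points are libraries (circle, square and triangle are replicates 1, 2 and 3, and for WT 1, 2-3 and 4), bars are means and lines are ± SD (n = 3, cut off at 0). The groups stand apart at Dnmt3a, and at Tet2 and Tet3 the DIDO3ΔE16 libraries lie above all others. Single libraries lie far from the rest of their group at Dnmt1, Dnmt3b and Dnmt3l.

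**Figure D2:**
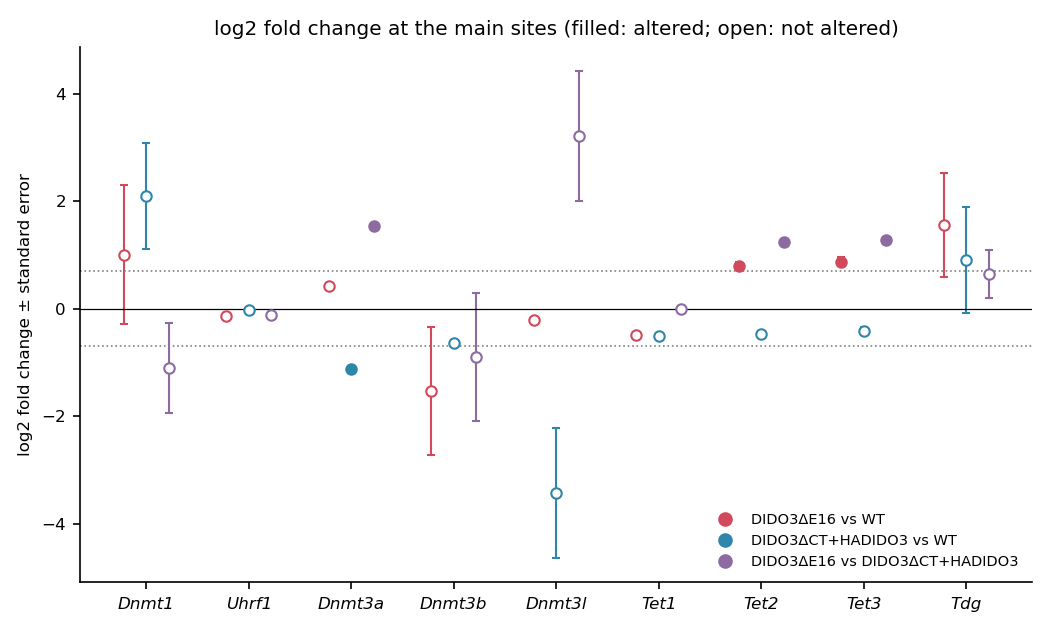
log2 fold change ± standard error (vertical axis) at the main site of each gene for the 3 comparisons, from limma. Filled points are altered sites, and dotted lines mark the fold threshold of 0.7 in both directions. Filled points are seen at Dnmt3a, Tet2 and Tet3, and the long error bars belong to Dnmt1, Dnmt3b, Dnmt3l and Tdg.

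Tet2 lies on the minus strand of chromosome 3, and its site covers 133461677 to 133466736 (mm10), the 3′UTR and 2 kb beyond it. It had 97.1, 85.6 and 82.1 TPM in WT, 160, 166 and 152 TPM in DIDO3ΔE16, and 64.7, 69.1 and 70.7 TPM in DIDO3ΔCT+HADIDO3. Every DIDO3ΔE16 library lay above every WT library, and every reconstituted library lay below them. The means were 88.3 ± 7.85, 159 ± 7.37 and 68.2 ± 3.12 TPM (SD, n = 3). Tet2 thus rose 1.73-fold in DIDO3ΔE16 (log2 fold change 0.79, standard error 0.0682, limma adjusted p = 0.00125). In DIDO3ΔCT+HADIDO3 the log2 fold change was −0.47 (standard error 0.0638, limma adjusted p = 0.004), under the fold threshold. In the direct comparison Tet2 was 2.37-fold higher in DIDO3ΔE16 (log2 fold change 1.24, standard error 0.0471, limma adjusted p = 5.24e-05).

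Tet3, the TET gene best known from the egg and zygote, was at a lower level and had the same order of groups. Its main site, on the minus strand of chromosome 6 (83360374 to 83368041), had 12.8, 11.0 and 11.9 TPM in WT, 20.8, 23.5 and 24.2 TPM in DIDO3ΔE16, and 9.28, 9.74 and 9.57 TPM in DIDO3ΔCT+HADIDO3. The 3 groups did not overlap. Tet3 rose 1.83-fold in DIDO3ΔE16 (log2 fold change 0.87, standard error 0.0843, limma adjusted p = 0.0017). In DIDO3ΔCT+HADIDO3 it was −0.42 (standard error 0.074, limma adjusted p = 0.00964), not altered. The direct difference was 1.27 (2.41-fold, standard error 0.0699, limma adjusted p = 0.000133). The last 19 bases of this site overlap the downstream end of the Bola3 site on the other strand, which was 20.1 to 27.8 TPM in the 9 libraries and was altered in no comparison.

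Tet1, the main TET gene of ESC, had the highest TPM of the 9 main sites. Its main site is on the minus strand of chromosome 10 (62802570 to 62812531). The values were 666, 671 and 594 TPM in WT, 465, 479 and 482 TPM in DIDO3ΔE16, and 506, 466 and 485 TPM in DIDO3ΔCT+HADIDO3. Both lines lay below every WT library and overlapped each other. The log2 fold change relative to WT was −0.50 in DIDO3ΔE16 (0.708-fold, standard error 0.0465, limma adjusted p = 0.00155) and −0.51 in DIDO3ΔCT+HADIDO3 (0.704-fold, standard error 0.0615, limma adjusted p = 0.00284). Both are under the fold threshold, so Tet1 was altered in neither line. The direct difference was −0.01 (standard error 0.0435, limma adjusted p = 0.852).

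Tet1 therefore made up less of the family's summed TPM in DIDO3ΔE16. Of the summed TPM of the 3 TET genes, Tet1 was 85.8% to 87.4% in WT, 71.6% to 73.3% in DIDO3ΔE16 and 85.5% to 87.2% in DIDO3ΔCT+HADIDO3. Tet2 was 11.2% to 12.5% in WT, 23.1% to 24.9% in DIDO3ΔE16 and 11.2% to 12.7% in DIDO3ΔCT+HADIDO3. The shares of the DIDO3ΔE16 libraries did not overlap those of the other groups, whereas WT and DIDO3ΔCT+HADIDO3 overlapped. The ratio of Tet2 to Tet3 stayed between 6.27 and 7.81 in all 9 libraries. The sum itself was 688 to 775 TPM in WT, 646 to 669 TPM in DIDO3ΔE16 and 545 to 580 TPM in DIDO3ΔCT+HADIDO3.

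**Figure D3:**
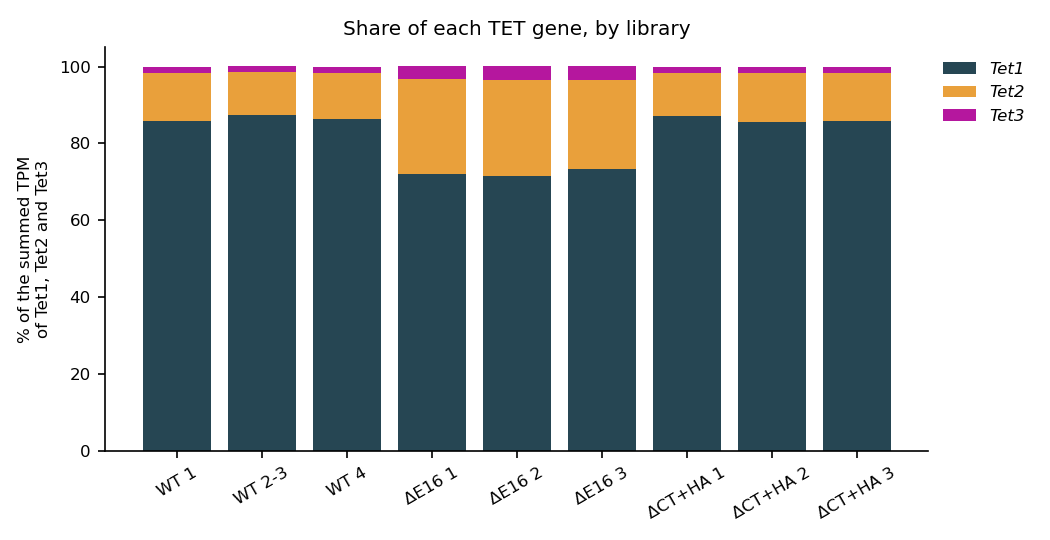
Share of Tet1, Tet2 and Tet3 in their summed TPM (vertical axis, %), 1 bar per library. ΔE16 is DIDO3ΔE16 and ΔCT+HA is DIDO3ΔCT+HADIDO3. The Tet2 share is 23.1% to 24.9% in the DIDO3ΔE16 libraries and 11.2% to 12.7% in the other 6.

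Dnmt3a also separated the 3 groups. Its main site is on the plus strand of chromosome 12 (3907748 to 3916443). It had 149, 135 and 139 TPM in WT, 194, 198 and 202 TPM in DIDO3ΔE16, and 68.2, 68.1 and 70.7 TPM in DIDO3ΔCT+HADIDO3. No group overlapped another. Dnmt3a fell to 0.456-fold of WT in DIDO3ΔCT+HADIDO3 (log2 fold change −1.13, standard error 0.0392, limma adjusted p = 0.000108). In DIDO3ΔE16 it was 1.35-fold of WT (log2 fold change 0.43, standard error 0.0366, limma adjusted p = 0.00122), under the fold threshold. The direct difference was 2.91-fold (log2 fold change 1.54, standard error 0.0259, limma adjusted p = 1.21e-05). Of the 3 features at the site, 1 held the whole signal in 8 libraries, but in DIDO3ΔE16 replicate 3 the 3 features had 61.0, 67.0 and 74.1 TPM. With that feature alone in place of the sum, the direct difference was 1.06 and not altered (limma adjusted p = 0.12).

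With the flow-cell family as a term, Tet2 and Tet3 stayed altered in DIDO3ΔE16 (log2 fold change 0.83, limma adjusted p = 0.0143, and 0.98, limma adjusted p = 0.0109), and so did Dnmt3a in DIDO3ΔCT+HADIDO3 (−1.07, limma adjusted p = 0.00156). Tet3 in DIDO3ΔCT+HADIDO3 was then −0.31 (limma adjusted p = 0.07). These fits rest on the 1 WT library that shares the family.

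Dnmt3b, the other de novo enzyme, has a site of 9 features on the plus strand of chromosome 2 (153686400 to 153689730). It had 237, 238 and 228 TPM in WT, 163, 159 and 160 TPM in DIDO3ΔCT+HADIDO3, and 198, 13.9 and 220 TPM in DIDO3ΔE16. The reconstituted libraries lay below every WT library, and DIDO3ΔE16 replicate 2 lay far below all others. In DIDO3ΔCT+HADIDO3 the log2 fold change was −0.65 (0.638-fold, standard error 0.0343, limma adjusted p = 0.000276), just under the fold threshold. In 1 fit of all 9 libraries, which also takes in the spread of DIDO3ΔE16, it was −0.64 and did not pass the test (standard error 0.997, limma adjusted p = 0.656). The log2 fold change in DIDO3ΔE16 was −1.53 with a standard error of 1.19 (limma adjusted p = 0.386), and without replicate 2 it was −0.23 (limma adjusted p = 0.0424). The direct difference was −0.90 (limma adjusted p = 0.571) and turned to 0.40 without that library (limma adjusted p = 0.00789), not altered either way.

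Dnmt3l has 6 features at its site on the plus strand of chromosome 10 (78063350 to 78065622). The values were 225, 232 and 232 TPM in WT, 203, 209 and 211 TPM in DIDO3ΔE16, and 56.8, 3.52 and 58.2 TPM in DIDO3ΔCT+HADIDO3. Every reconstituted library lay below every library of the other groups, and replicate 2 lay far below the other 2. The log2 fold change in DIDO3ΔCT+HADIDO3 was −3.43 with a standard error of 1.21, and with all libraries it did not pass the test (limma adjusted p = 0.0848). Without replicate 2 of that line it was −2.10 (limma adjusted p = 0.000613), past the thresholds, and the direct difference was then 1.87 (limma adjusted p = 0.000167) in place of 3.20 (limma adjusted p = 0.0857). In DIDO3ΔE16 the difference from WT was −0.21 (standard error 0.0331, limma adjusted p = 0.00781), under the fold threshold. In 1 fit of all 9 libraries, which also takes in the spread of DIDO3ΔCT+HADIDO3, it was −0.20 and did not pass the test (standard error 1.015, limma adjusted p = 0.909).

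**Figure D4:**
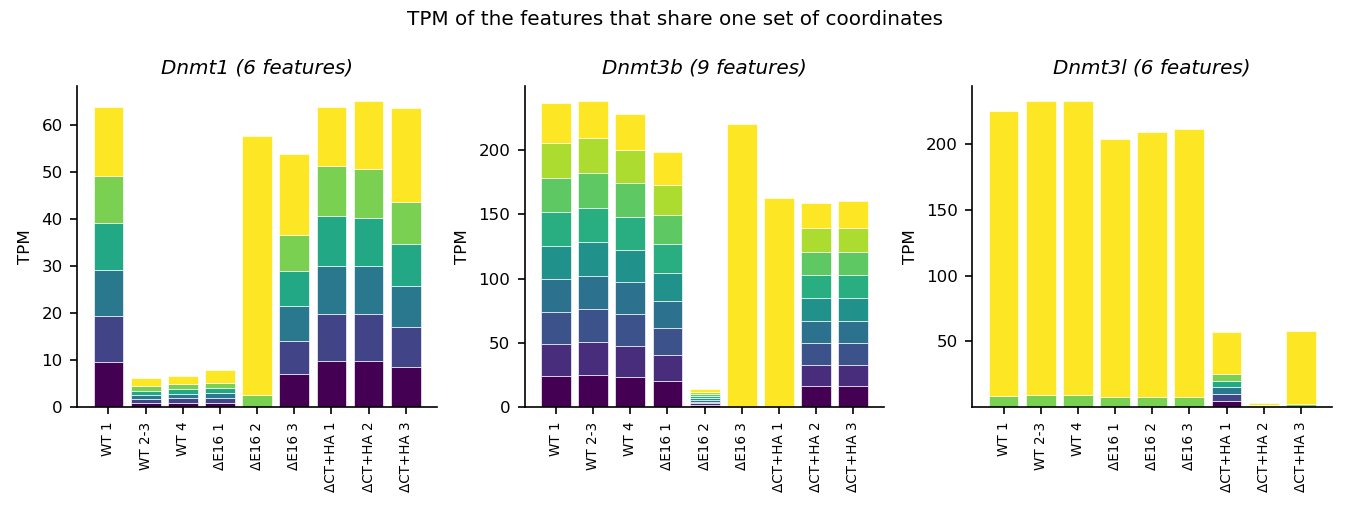
TPM (vertical axis, linear from 0) at the sites of Dnmt1, Dnmt3b and Dnmt3l in each library, stacked by the features that share the site's coordinates, 1 colour per feature. The total is low in 3 libraries at Dnmt1 (6.23 to 8.004 TPM), in DIDO3ΔE16 replicate 2 at Dnmt3b and in DIDO3ΔCT+HADIDO3 replicate 2 at Dnmt3l, and the split between features also changes from library to library.

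The maintenance enzyme Dnmt1 could not be compared between groups. Its site has 6 features on the minus strand of chromosome 9 (20905206 to 20907520), and it had 63.8, 6.23 and 6.69 TPM in WT, 8.004, 57.5 and 53.7 TPM in DIDO3ΔE16, and 63.8, 64.9 and 63.4 TPM in DIDO3ΔCT+HADIDO3. The libraries of WT and of DIDO3ΔE16 fell into low and high values, and the high ones of all 3 groups lay between 53.7 and 64.9 TPM. None of the differences was altered: 1.002 in DIDO3ΔE16 (limma adjusted p = 0.6), 2.09 in DIDO3ΔCT+HADIDO3 (limma adjusted p = 0.166) and −1.11 directly (limma adjusted p = 0.333). Without WT replicate 1, the difference in DIDO3ΔCT+HADIDO3 was 3.18 and past the thresholds (limma adjusted p = 0.000691). Leaving out 1 library moved the difference in DIDO3ΔE16 between 0.43 (without WT replicate 2-3) and 2.08 (without WT replicate 1), and the direct one between −1.60 (without DIDO3ΔE16 replicate 2) and −0.19 (without DIDO3ΔE16 replicate 1).

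Uhrf1, its partner at the replication fork, had close values in all 9 libraries. Its site on the plus strand of chromosome 17 (56322503 to 56325486) had 401, 390 and 415 TPM in WT, 376, 384 and 391 TPM in DIDO3ΔE16, and 429, 421 and 416 TPM in DIDO3ΔCT+HADIDO3. WT and DIDO3ΔE16 overlapped, and the reconstituted libraries lay just above WT before scaling. The log2 fold changes were −0.13 (standard error 0.0367, limma adjusted p = 0.0447), −0.03 (standard error 0.0452, limma adjusted p = 0.602) and, directly, −0.12 (standard error 0.0338, limma adjusted p = 0.0341). The middle one was 0.07 without scaling and 0.11 with quantile normalization. The adjusted p in DIDO3ΔE16 was over 0.05 without scaling (limma adjusted p = 0.187), with quantile normalization (0.704), without the trend (0.162), with the flow-cell term (0.302) and without any 1 library other than WT replicate 4 (0.0516 to 0.122). With single features in place of the sum the differences were −0.72 in DIDO3ΔE16 and −0.69 directly, neither altered (limma adjusted p = 0.332 and 0.269). The largest range within a group was 1.07-fold, the smallest such value of the genes other than Tdg, although the split of the signal over the 4 features changed between libraries.

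Tdg could not be measured at its own site. The site on the plus strand of chromosome 10 (82648721 to 82652494) had 0.06, 0.078 and 1.36 TPM in WT, 0.633, 0.941 and 1.47 TPM in DIDO3ΔE16, and 0.365, 0.506 and 1.04 TPM in DIDO3ΔCT+HADIDO3. The 3 groups overlapped, and no comparison was altered (limma adjusted p = 0.281, 0.523 and 0.286). It shares 2628 bases, 69.6% of its length, with the site of Glt8d2 on the opposite strand. Glt8d2 had 173 to 189 TPM in WT, 113 to 130 TPM in DIDO3ΔE16 and 46.9 to 55.6 TPM in DIDO3ΔCT+HADIDO3. The counting used no strand option, so reads of Tdg and Glt8d2 cannot be told apart, and the Tdg value is not a level of the gene.

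TPM is per length of the whole site, and the added 2 kb make up 20.1% of the Tet1 site but 88.0% of the Dnmt3l site. The order given here is thus of site values, not of RNA levels of the genes. In WT the order was Tet1, Uhrf1, then Dnmt3b and Dnmt3l, whose libraries overlapped, then Dnmt3a, Tet2 and Tet3, with Dnmt1 below Dnmt3a in every library. In DIDO3ΔE16 Dnmt3a and Dnmt3l were close, with means of 198 ± 3.95 and 208 ± 4.17 TPM (SD, n = 3) and no overlap of libraries. In DIDO3ΔCT+HADIDO3 Tet2 (68.2 ± 3.12 TPM) overlapped both Dnmt3a (69.0 ± 1.47 TPM) and Dnmt1 (64.1 ± 0.792 TPM).

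Separate sites upstream of the main ones were listed for Dnmt3a, Tet1 and Tet3, and all had at most 1.74 TPM. The upstream Dnmt3a site (chromosome 12, 3866414 to 3869484) had 0.0947 ± 0.0345 TPM in DIDO3ΔE16 and 0.357 ± 0.125 TPM in DIDO3ΔCT+HADIDO3. It was altered in the direct comparison, in the opposite direction to the main site (log2 fold change −1.19, limma adjusted p = 0.0243), at a mean coverage of 0.0267 to 0.361. This call rested on single libraries and on the pseudocount: it was lost without replicate 1 or 3 of DIDO3ΔE16 or replicate 2 or 3 of DIDO3ΔCT+HADIDO3 (limma adjusted p = 0.0627 to 0.0732), and with a pseudocount of 1 the difference was −0.30. The upstream Tet1 site (62810709 to 62813512), which shares 1823 bases with the main site, had 0.912 to 1.74 TPM. The upstream Tet3 site (83396439 to 83398570) had 0.092 to 0.495 TPM. These 2 sites were altered in no comparison.

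The genes whose pattern over the 9 libraries was most like these were sought by Pearson's r of log2(scaled TPM + 0.1) for the 3 altered members. Among them were Zfhx3 (r = 0.9986) and Opa3 (r = 0.9985) for Dnmt3a, Ercc4 (r = 0.9966) and Adprh (r = 0.9953) for Tet3, and for Tet2 Rint1 (r = 0.9969), Arfgap1 (r = 0.9965) and Socs5 (r = 0.9958). The 9 points are 3 groups of libraries, so r mostly describes the order of the group levels.

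The maintenance machinery has further partners, and most of these were not altered. Of 7 genes, Dppa3 was the 1 that fell in both lines, and none rose. Over all sites, 4.94% fell and 10.2% rose in DIDO3ΔE16, and 7.24% fell and 10.1% rose in DIDO3ΔCT+HADIDO3. Dppa3 encodes STELLA, which keeps UHRF1 away from chromatin. It had 15.29, 17.25 and 14.98 TPM in WT, 7.44, 7.35 and 4.78 TPM in DIDO3ΔE16, and 3.36, 3.85 and 3.70 TPM in DIDO3ΔCT+HADIDO3, without overlap. The log2 fold changes were −1.35 (limma adjusted p = 0.00614) and −2.19 (limma adjusted p = 0.000163). Hells, a chromatin remodeler needed for DNA methylation, was −0.27 (limma adjusted p = 0.007) and −0.14 (limma adjusted p = 0.0646), and Usp7, a partner of UHRF1 and DNMT1, varied from 25.4 to 316 TPM between libraries. The median log2 fold change of the 7 genes was −0.40 in DIDO3ΔE16 and −0.19 in DIDO3ΔCT+HADIDO3, beside −0.012 and −0.014 over all sites.

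Among 8 partners of de novo methylation and silencing, 1 fell in DIDO3ΔE16, while 2 rose and 1 fell in DIDO3ΔCT+HADIDO3. Over all sites 4.94% fell in the first, and 10.1% rose and 7.24% fell in the second. Trim28 (KAP1), the corepressor of KRAB zinc finger proteins, went in opposite directions: 165, 152 and 167 TPM in WT, 88.5, 94.5 and 92.0 TPM in DIDO3ΔE16, and 293, 300 and 280 TPM in DIDO3ΔCT+HADIDO3. It fell in DIDO3ΔE16 (−0.88, limma adjusted p = 0.000401), rose in DIDO3ΔCT+HADIDO3 (0.74, limma adjusted p = 0.000825), and differed directly by −1.65 (limma adjusted p = 2.9e-05). Prdm14, which represses Dnmt3b and Dnmt3l in naive cells, rose in DIDO3ΔCT+HADIDO3 (0.90, limma adjusted p = 0.000299) from 28.6 ± 1.12 to 57.4 ± 3.06 TPM (SD, n = 3), and was 0.37 in DIDO3ΔE16 (limma adjusted p = 0.00793). Nsd1, a histone H3 lysine 36 methyltransferase, fell in DIDO3ΔCT+HADIDO3 (−0.81, limma adjusted p = 0.000276). Zfp57, which protects methylation at imprints, was 2.07-fold higher in DIDO3ΔE16 than in DIDO3ΔCT+HADIDO3 (limma adjusted p = 0.00176). The median of the 8 was 0.00349 in DIDO3ΔE16 and −0.41 in DIDO3ΔCT+HADIDO3.

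Of 7 methyl-CpG readers, Mbd2 fell in DIDO3ΔCT+HADIDO3 (−0.86, limma adjusted p = 0.00109), and none of the 6 tested was altered in DIDO3ΔE16. The shares over all sites were 7.24% lower in DIDO3ΔCT+HADIDO3 and 15.1% altered in DIDO3ΔE16. Mbd3, a subunit of the NuRD complex, had 166 TPM in replicate 2 of DIDO3ΔCT+HADIDO3 and 2.43 and 4.58 TPM in the others, against 186 to 210 TPM in WT, and did not pass the test (limma adjusted p = 0.128).

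Of 13 genes that act with the TET enzymes or downstream of TDG in base excision repair, 12 had a named feature, and in DIDO3ΔE16 3 of the 12 fell and none rose, where 4.94% of all sites fell and 10.2% rose. They were Gadd45b (−1.16, limma adjusted p = 0.000799), Neil2 (−0.78, limma adjusted p = 0.00303) and Apex1 (−0.76, limma adjusted p = 0.00492). Gadd45b is a stress-induced protein linked to demethylation, NEIL2 is a DNA glycosylase, and APEX1 cuts abasic sites. The median log2 fold change of the 12 was −0.59. In DIDO3ΔCT+HADIDO3, 1 rose (Neil3, 1.83, limma adjusted p = 0.000167) and 2 fell, Gadd45a (−1.42, limma adjusted p = 0.000276) and Xrcc1, a scaffold of base excision repair (−3.78, limma adjusted p = 0.000248), with a median of 0.21. Of all sites, 10.1% rose and 7.24% fell in that line. Xrcc1 had 6.64, 8.18 and 5.84 TPM in WT, 7.08, 7.71 and 7.59 TPM in DIDO3ΔE16, and 0.349, 0.471 and 0.503 TPM in DIDO3ΔCT+HADIDO3. Ogt, the glycosyltransferase that binds TET proteins, was −0.58 in DIDO3ΔE16 (limma adjusted p = 0.0032) and 0.23 in DIDO3ΔCT+HADIDO3 (limma adjusted p = 0.107).

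Of 6 genes that supply the methyl donor or 2-oxoglutarate, Ahcy, which clears S-adenosylhomocysteine, fell in DIDO3ΔCT+HADIDO3 (−0.78, limma adjusted p = 0.000434) and none was altered in DIDO3ΔE16. Of all sites, 7.24% fell in DIDO3ΔCT+HADIDO3 and 15.1% were altered in DIDO3ΔE16. Mat2a, which makes S-adenosylmethionine, ranged from 3.37 to 386 TPM within WT, and Idh1 from 1.96 to 151 TPM within DIDO3ΔCT+HADIDO3, so neither could be compared.

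Germline genes that promoter methylation keeps silent in somatic cells were mostly at low levels. In DIDO3ΔCT+HADIDO3, 4 of the 8 tested rose and none fell, where 10.1% of all sites rose and 7.24% fell. They were Dazl (0.76, limma adjusted p = 0.00693), Mael (0.98, limma adjusted p = 0.000604), Tex101 (1.65, limma adjusted p = 0.0302) and Brdt (1.12, limma adjusted p = 0.0368). Tex101 and Brdt were near the floor, with means of 0.298 and 0.969 TPM in WT and 1.16 and 2.33 TPM in DIDO3ΔCT+HADIDO3. In DIDO3ΔE16, Brdt rose (1.16, limma adjusted p = 0.0261), Ddx4 fell (−0.75, limma adjusted p = 0.0113), and the other 7 tested were not altered. Of all sites, 10.2% rose and 4.94% fell in DIDO3ΔE16. Dazl, an RNA-binding protein of germ cells, had 32.1, 29.2 and 26.0 TPM in WT, 46.4, 47.5 and 52.6 TPM in DIDO3ΔE16, and 47.7, 49.0 and 62.8 TPM in DIDO3ΔCT+HADIDO3. Both lines lay above WT and overlapped each other, and the difference in DIDO3ΔE16 (0.68, limma adjusted p = 0.00348) was just under the fold threshold. The median log2 fold change of the genes tested was 0.69 and 0.52 in the lines, beside −0.012 and −0.014 over all sites.

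**Figure D5:**
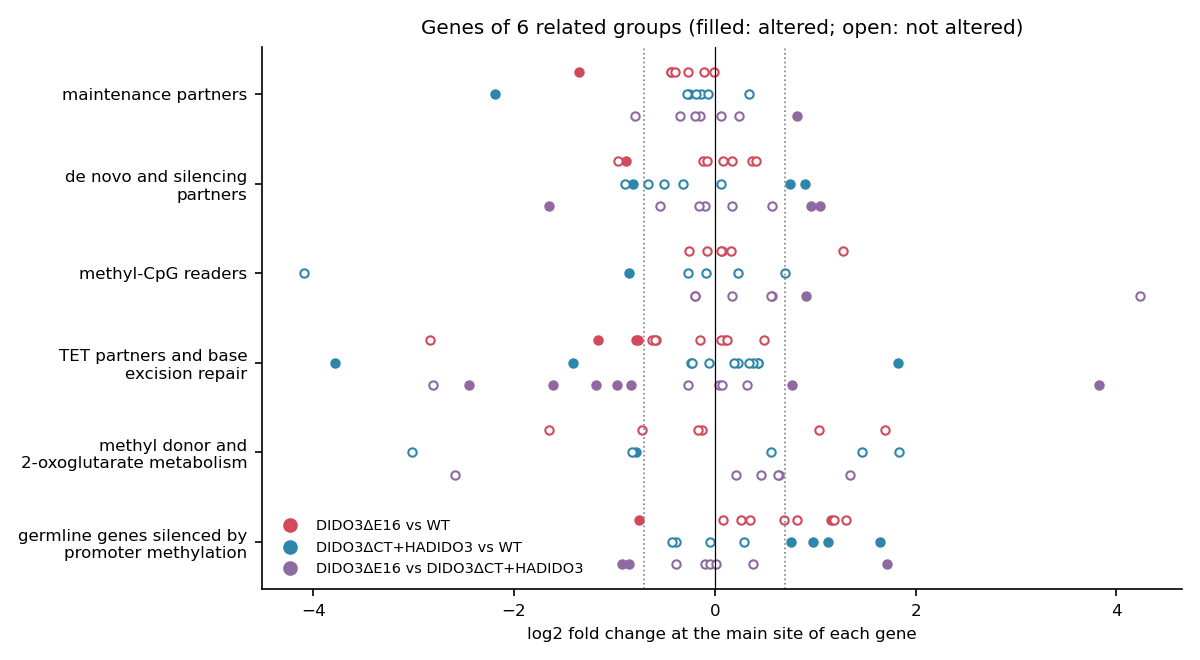
log2 fold change (horizontal axis) at the main site of each gene in 6 related groups, for the 3 comparisons. Filled points are altered sites, and dotted lines mark the fold threshold of 0.7. In the row of TET partners and base excision repair, 3 filled points lie on the lower side for DIDO3ΔE16 and none on the higher side.

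Markers of other cells differed between the groups as well. The summed level of 6 primitive endoderm genes was 117 to 153 TPM in WT, 62.4 to 78.3 TPM in DIDO3ΔE16 and 47.4 to 51.9 TPM in DIDO3ΔCT+HADIDO3. Of these genes, 4 fell in DIDO3ΔE16 and 5 in DIDO3ΔCT+HADIDO3, where 4.94% and 7.24% of all sites fell. The 9 fibroblast genes, which the feeder layer would express, summed to 56.4 to 63.9 TPM in WT, 126 to 132 TPM in DIDO3ΔE16 and 92.1 to 99.2 TPM in DIDO3ΔCT+HADIDO3. Of these, Lum and Dcn were at 0 in all WT libraries and at most 0.129 TPM in the others. In DIDO3ΔE16, 6 of the 7 fibroblast genes tested rose and none fell, where 10.2% of all sites rose and 4.94% fell. In DIDO3ΔCT+HADIDO3, 2 of the 5 tested rose, Thy1 (1.40, limma adjusted p = 0.000133) and Pdgfrb (2.82, limma adjusted p = 5.34e-05), and 3 fell, Col1a1 (−3.36, limma adjusted p = 0.000434), Col1a2 (−5.84, limma adjusted p = 5.02e-05) and S100a4 (−3.43, limma adjusted p = 0.000773). Thy1 and Pdgfrb, with means of 54.4 and 39.6 TPM, made up most of the sum in that line, where 10.1% of all sites rose and 7.24% fell. By group means, Col1a1, Col1a2, Col3a1, Postn and S100a4 were highest in DIDO3ΔE16 and lowest in DIDO3ΔCT+HADIDO3, the order also seen at Dnmt3a, Tet2 and Tet3. Mbd2, Nsd1 and Zfp57, which are not in the fibroblast list, had this order too, and how common it is was not counted. Thy1 and Pdgfrb were instead highest in DIDO3ΔCT+HADIDO3 and lowest in WT. The 7 epiblast-like markers include Dnmt3b, and the other 6 summed to 45.9 to 50.3, 47.9 to 56.4 and 48.0 to 51.1 TPM, with single genes moving in opposite directions. In DIDO3ΔE16 Otx2 (−2.25, limma adjusted p = 0.000725) and Lef1 (−1.37, limma adjusted p = 0.0162) fell and Sox3 rose (1.66, limma adjusted p = 0.00124). In DIDO3ΔCT+HADIDO3 Otx2 rose (1.01, limma adjusted p = 0.00119), and Pou3f1 (−1.002, limma adjusted p = 0.000531) and Cdh2 (−0.75, limma adjusted p = 0.0156) fell. The part of these cells in the values of the 9 genes was not tested.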

How the data were processed

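RNA-seq of mouse ESC was analysed from 9 libraries. The authors used BWA-MEM 0.7.15 (mm10), Picard to drop duplicate reads, and StringTie 1.3.3 over 3′UTR + 2 kb features, without a strand option per the file headers; the deposited values are TPM, normalized within each library over these features. Sharing of reads between features of the same coordinates, and reads of the other strand, can move the values of single sites. Features were named from GENCODE vM21 exons on the same strand, and TPM was summed over identical coordinates. Libraries were scaled by a mean of log2 ratios trimmed by 30% at each end, and 2-group fits of log2(scaled TPM + 0.1) were made with limma 3.58.1 (R 4.3.3; trend, robust; 2-sided, Benjamini-Hochberg over all sites with TPM above 0 in every library). The test was checked on simulated data, where it called 42.8% of sites changed by 1 and 61.8% of those changed by 2 on the log2 scale. TPM gives no counts, so counting intervals are not given. Named were every site of the 9 genes, genes of the lists that were altered in at least 1 comparison or were listed as examples, overlapping genes and Dido1. The members and lists were chosen with earlier results of these data known. Replicate numbers did not pair the libraries. No deposited column of per-sample values was left out. Some genes that the lists or the search for like patterns would name are not reported here.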

Additional observations from a re-analysis of the deposited data

Results flagged for a closer look

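At 3 of the 9 main sites the levels differed between the lines when DIDO3ΔE16 was set directly against DIDO3ΔCT+HADIDO3, a fit that does not use the WT libraries. In this comparison 27.4% of all sites were altered, and these 3 are listed because they were altered. The log2 difference was 1.54 at Dnmt3a, 1.24 at Tet2 and 1.27 at Tet3, each with a limma adjusted p under 0.05 and with every DIDO3ΔE16 library above every reconstituted one, as at 61.6% of all sites in either direction. Leaving out any 1 library changed none of these calls. The groups of 3 libraries are too small for the search for single outlying libraries.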

How the results depend on the processing

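Tet2 and Tet3 in DIDO3ΔE16 and Dnmt3a in DIDO3ΔCT+HADIDO3 stayed altered under every alternative but the replicate block, which leaves 1 residual degree of freedom against WT. The numbers did not pair the libraries (every same-numbered correlation was between −0.0323 and 0.0346). With the block no site was altered in either comparison with WT (0 of the 3191 and 3612), with WT replicate 2-3 taken as 2 or as 3. Tet2 was then 0.79 or 0.72, Tet3 0.85 or 0.87 and Dnmt3a −1.13 or −1.12. At an adjusted p under 0.01, 2112 sites were altered in DIDO3ΔE16.

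With single features in place of sums, Dnmt3a was −0.054 in DIDO3ΔE16, Dnmt3b 0.38 in DIDO3ΔCT+HADIDO3, and the direct difference of Dnmt3a 1.06. In DIDO3ΔE16 Uhrf1 was then −0.72 (−0.69 directly), Dnmt1 1.85 and Dnmt3b −0.47, none altered. Uhrf1 in DIDO3ΔCT+HADIDO3 turned to 0.070 without scaling, 0.11 with quantile normalization, 0.0090 with the flow-cell term and 0.024 with the block (replicate 2-3 as 2). In 1 fit of all 9 libraries Dnmt3l passed the thresholds (−3.42, and 3.22 directly), and Tet1 was 0.0038 directly. Quantile normalization turned the upstream sites of Tet1 (−0.26) and Tet3 (−0.21) in DIDO3ΔE16. The flow-cell term turned those of Dnmt3a (0.019) and Tet3 (−0.54) in DIDO3ΔE16 and Tet3 in DIDO3ΔCT+HADIDO3 (−0.45), and the block turned Tet3 (−0.039 and −0.32). The cause was not tested.

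Leaving out 1 library gave 2724 to 2956, 3152 to 3492 and 5464 to 5555 altered sites. Dnmt1 ranged from 1.52 to 3.18 in DIDO3ΔCT+HADIDO3, from 0.43 to 2.08 in DIDO3ΔE16 and from −1.60 to −0.19 directly, Dnmt3l from −4.10 to −2.10 and directly from 1.87 to 3.87, Dnmt3b directly from −1.59 to 0.40, Tet1 directly from −0.047 to 0.026, and Tdg from 0.995 to 2.61 in DIDO3ΔE16 and 0.34 to 1.95 in DIDO3ΔCT+HADIDO3, past the thresholds without WT replicate 4. Upstream sites ranged from −0.11 to 0.22 (Tet1) and −0.17 to 0.47 (Tet3) in DIDO3ΔE16, and for Tet3 from −0.12 to 0.69 in DIDO3ΔCT+HADIDO3 and −0.58 to 0.24 directly. Depth is known only as coverage, which limits sites under about 1 TPM.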
